A study of Saccharomyces cerevisiae with 21 samples.

Results

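Poly(A) RNA of nuclear extracts was compared with poly(A) RNA of whole cells in budding yeast that had been starved of glucose for 24 h. The comparison used 5 of the study's 21 libraries, chosen by their labels: 3 nuclear extract libraries and 2 whole cell libraries of the tagged wild type. The strain was BY4742, of mating type alpha, with the his3Δ1, leu2Δ0, lys2Δ0 and ura3Δ0 alleles and with NAB2 replaced by NAB2-yEGFP-HISMX, so Nab2 carried a fluorescent tag in every library compared here. Cells grew to mid-log phase in synthetic complete medium with 2% glucose, were washed into medium lacking glucose and were harvested 24 h later. Nuclear extracts came from Zymolyase-treated spheroplasts that were dounced in a Ficoll buffer and fractionated on a sucrose gradient, whereas cells for the whole cell libraries were frozen directly. Both kinds of RNA were selected on oligo(dT) beads before strand-specific libraries were made. Extracts and whole cells belong to separate library series, so the fraction and the library series cannot be told apart. Starved libraries of 2 altered strains of the same background, with 3 nuclear and 2 whole cell libraries each, share the fit. The IDR mutant carries NAB2-ΔQQQP-ΔRGG with residues 104 to 263 deleted, an SV40 nuclear localization signal and yEGFP. The interface mutant carries NAB2-F450A-GFP, and its nuclear replicate 3 held only 3981 counts. Whole cell libraries of both mutants, starved and unstressed, also served to class genes by level and by response to starvation. The labels do not say that replicates were separate cultures, so p-values measure only the spread between these libraries.

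Yeast makes messenger RNA in the nucleus, where a poly(A) tail is added and proteins that bind the tail, Nab2 among them, accompany the RNA to the nuclear pore. Once exported, most messenger RNA is translated and finally degraded in the cytoplasm, so a whole cell sample holds the cytoplasmic pool together with the nuclear one. A nuclear extract made on a gradient is enriched for nuclei but also holds material that sediments with them. Levels are relative to all counted yeast RNA of a library, and neither RNA per nucleus nor RNA per cell was measured. In such bulk samples fewer cells of a kind and less RNA per cell cannot be told apart.

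The nuclear libraries held 23138938, 6353585 and 1079 counts in yeast features, and the whole cell libraries held 5513154 and 4815254. Nuclear replicate 3 entered the fit, and it moves fitted values of abundant genes, as given below. A single count there stands for 927 CPM (counts scaled to a common library total), so its values are given as counts and its part in the results is described separately. Over genes, the Spearman correlation was 0.974 between nuclear replicates 1 and 2 and 0.995 between the whole cell replicates, and it was 0.881 to 0.928 between a nuclear and a whole cell library. In a chi-square test of counts over genes, the statistic divided by its degrees of freedom was 113 for nuclear replicates 1 and 2 and 3.03 for the whole cell replicates. That statistic grows with depth, which was greater in the nuclear pair. The median absolute log2 difference was 0.28 between the nuclear and 0.11 between the whole cell replicates, so the nuclear replicates were less alike. LEU2, LYS2 and URA3, deleted in the parent, had at most 3 counts in any of the 5 libraries, and HIS3, deleted in part, had 32.5 and 19.0 CPM in nuclear extracts, against 21.8 and 25.8 CPM in whole cells. The 4 alpha-type genes MF(ALPHA)1, MF(ALPHA)2, STE3 and SAG1 summed to 1394 and 543 CPM in nuclear replicates 1 and 2, against 1389.6 and 1363 CPM in whole cells, so nuclear replicate 2 lay below the other 3 libraries. The 6 a-type genes summed to 34.1 and 43.1 CPM in nuclear extracts, against 18.5 and 19.5 CPM in whole cells. The 5 sporulation markers summed to 57.7 and 82.9 CPM in nuclear extracts, against 87.1 and 75.8 CPM in whole cells. NAB2 itself (YGL122C, chromosome VII, 278946 to 280523) stood at 414 and 431 CPM in nuclear extract replicates 1 and 2, against 370.4 and 380.0 CPM in whole cells, with 0 counts in nuclear replicate 3. It did not pass the test (log2 difference -0.11 ± 0.40 SE, adjusted p = 0.873).

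Among 5936 genes tested with edgeR's quasi-likelihood test, 1682 (28.3%) differed between nuclear extracts and whole cells at an adjusted p under 0.05. Of these, 958 genes (16.1%) were higher and 724 (12.2%) were lower in nuclear extracts. Without nuclear replicate 3 the numbers were 906 higher and 781 lower of 5943 genes, and 879 of the higher and 703 of the lower genes were shared with the fit of all libraries. The scaling factor of nuclear replicate 3 was 4.50, beside 1.02 and 0.951 for nuclear replicates 1 and 2 and 0.846 and 0.848 for whole cells. It rests on 668 features with a count, and it can lower the fitted nuclear level of abundant genes, with or without counts there. Values without that library are therefore given beside those of some abundant genes. Others, such as FES1, TDH2, HSC82, PGK1 and ENO1, are given only from the fit that includes it. The split between the directions rests on the scaling: with library size alone, 1471 genes were higher and 330 lower, and the median difference over all genes was 0.24 on the log2 scale instead of 0.00. The number of calls also rests on single libraries. It was 557 without nuclear replicate 2, 580 without whole cell replicate 1 and 582 without whole cell replicate 2. Where leaving out one of these 3 libraries moves a count of a gene list below by more than 1.5 times, the counts without nuclear replicate 2, whole cell replicate 1 and whole cell replicate 2 are given in that order. Where a named gene loses its call in such a fit this is stated, in most cases with the range of its log2 difference over all alternatives. Exceptions are YMR173W-A, HMS1, SER2 and RNP1, named below only for differences between strains, where such a loss is not stated. For genes chosen after their values were seen a loss is stated only where the counts of their list settle it. Counts of a list are to be read beside the 16.1% of all genes that rose and the 12.2% that fell, and the split with library size alone beside 1471 and 330.

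**Figure D1:**
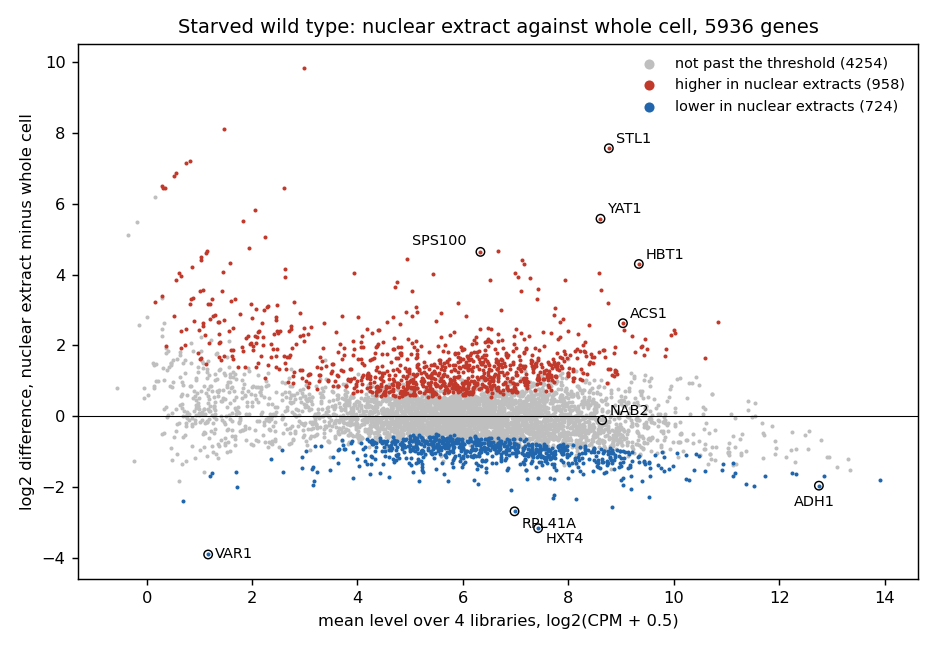
Difference between nuclear extracts and whole cells of starved wild type for each of 5936 genes (vertical axis, log2) against its mean level over nuclear replicates 1 and 2 and both whole cell libraries (horizontal axis, log2 of CPM + 0.5). Red points are the 958 genes higher and blue points the 724 genes lower in nuclear extracts at an adjusted p under 0.05; genes of low level reach larger positive differences than negative ones, where a gene near 0 in whole cells passed the filter on low counts only through its nuclear counts, and the most abundant genes lie mostly below 0.

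The highest rise among annotated genes with at least 10 CPM in a group was that of STL1 (YDR536W, chromosome IV, 1508005 to 1509714), which encodes the glycerol proton symporter of the plasma membrane. STL1 had 447 and 1288 CPM in nuclear extract replicates 1 and 2, against 3.45 and 4.36 CPM in whole cells, and 3 of the 1079 counts of nuclear replicate 3. All 3 nuclear libraries were thus above both whole cell libraries (log2 difference 7.56 ± 0.93 SE, adjusted p = 9.33e-05). YAT1 (YAR035W, chromosome I, 190193 to 192256), the carnitine acetyltransferase of the outer mitochondrial membrane, had 359.7 and 1175 CPM in nuclear extract replicates 1 and 2, against 13.2 and 13.3 CPM in whole cells, with 1 count in nuclear replicate 3 (log2 difference 5.57 ± 0.81 SE, adjusted p = 0.00021). SPS100 (YHR139C, chromosome VIII, 378219 to 379199), a spore wall maturation protein, had 113 and 197 CPM in nuclear extract replicates 1 and 2, against 5.99 and 4.57 CPM in whole cells (log2 difference 4.64 ± 0.37 SE, adjusted p = 1.94e-06). HBT1 (YDL223C, chromosome IV, 57265 to 60405), a target of the ubiquitin-like protein Hub1, had 649 and 1838 CPM in nuclear extract replicates 1 and 2, against 49.7 and 48.8 CPM in whole cells (log2 difference 4.30 ± 0.73 SE, adjusted p = 0.000693). In STL1, YAT1, SPS100 and HBT1 alike, nuclear replicate 2 stood above nuclear replicate 1, and the 2 whole cell libraries lay close together far below both.

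The other large rises covered membrane, cell surface and nuclear proteins. IRC15, a microtubule-associated protein, stood at 121 and 271 CPM in nuclear extracts, against 7.80 and 5.19 CPM in whole cells (log2 difference 4.68 ± 0.60 SE). AQR1, a plasma membrane exporter, stood at 100.005 and 434 CPM in nuclear extracts, against 10.2 and 11.4 CPM in whole cells (4.41 ± 0.75). MNN4, which promotes mannosylphosphate addition to cell wall glycans, stood at 187 and 362 CPM in nuclear extracts, against 11.4 and 12.3 CPM in whole cells (4.29 ± 0.50). FIT1, a cell wall mannoprotein for iron uptake, differed by 4.43 ± 0.68, and PHM7 and FMP45, both membrane proteins, by 4.04 ± 0.52 and 4.03 ± 0.73. In ASF1, a histone chaperone, nuclear replicate 1 was the higher one, with 103 and 58.9 CPM in nuclear extracts, against 3.81 and 4.78 CPM in whole cells (4.005 ± 0.41). SRL4 had 2.16 and 19.4 CPM in nuclear extracts, against 0.181 and 0.831 CPM in whole cells (4.16), with 1 and 4 counts in whole cells, and nuclear replicate 2 stood far above nuclear replicate 1. YER084W had 19.4 and 37.3 CPM in nuclear extracts, against 1.45 and 1.45 CPM in whole cells (4.04). Neither passed without nuclear replicate 2 or without either whole cell library, and over all alternatives the difference was 1.85 to 5.52 for SRL4 and 3.45 to 4.49 for YER084W. The adjusted p-values of these 9 genes in edgeR's test were 1.85e-05 to 0.0146. Some of these genes lie close together: HBT1 (57265 to 60405) and FMP45 (60872 to 61801) on chromosome IV, and FIT1 (1503314 to 1504900) and STL1 near the right end of the same chromosome.

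YLR154C-H (chromosome XII, 468827 to 468958) lies in the ribosomal DNA repeats, where copies share reads, and it is uncertain for that reason. It had 336 counts over nuclear replicates 1 and 2, against 1 count over both whole cell libraries. The ratio of the CPM values was 118, with an exact counting interval of 20.98 to 4661.

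Among the falls, HXT4 (YHR092C, chromosome VIII, 287081 to 288811), a high-affinity glucose transporter, had 32.8 and 46.6 CPM in nuclear extract replicates 1 and 2, against 332 and 275 CPM in whole cells (log2 difference -3.16 ± 0.44 SE, adjusted p = 0.000183). RPL41A (YDL184C, chromosome IV, 130407 to 130484), a protein of the large ribosomal subunit, had 55.1 and 22.2 CPM in nuclear extract replicates 1 and 2, against 218 and 208 CPM in whole cells (log2 difference -2.68 ± 0.37 SE, adjusted p = 0.000177). FPR1 (YNL135C, chromosome XIV, 371882 to 372226), the prolyl isomerase that binds rapamycin, had 344 and 248 CPM in nuclear extract replicates 1 and 2, against 1193 and 1183 CPM in whole cells (log2 difference -2.29 ± 0.39 SE, adjusted p = 0.000757). BNA1 (YJR025C, chromosome X, 471138 to 471671), an enzyme of NAD synthesis, had 87.4 and 83.6 CPM in nuclear extract replicates 1 and 2, against 352 and 326 CPM in whole cells (log2 difference -2.22 ± 0.34 SE, adjusted p = 0.000312). All 4 genes had whole cell values several times above both nuclear values, and none had a count in nuclear replicate 3.

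The remaining large falls included abundant messengers. ADH1, the main alcohol dehydrogenase of fermentation, had 4718 and 2596 CPM in nuclear extract replicates 1 and 2, against 10479 and 9819.6 CPM in whole cells, and 5 counts in nuclear replicate 3 (log2 difference -1.96 ± 0.50 SE, adjusted p = 0.00828). Without that replicate the difference was -1.74. ADH1 and FES1 did not pass without nuclear replicate 2 or without either whole cell library, with -2.47 to -1.44 for ADH1 and -2.12 to -1.57 for FES1 over all alternatives. TDH2, a glyceraldehyde-3-phosphate dehydrogenase, had 1685 and 1071 CPM in nuclear extracts, against 3969 and 3843 CPM in whole cells (-1.91 ± 0.45). FES1, the exchange factor of the chaperone Hsp70, had 1442 and 1455 CPM in nuclear extracts, against 4359 and 4582 CPM in whole cells (-1.98 ± 0.56), and its nuclear replicates were nearly equal. HXT3, a low-affinity glucose transporter, differed by -1.94 ± 0.40, RPL43B by -2.32 ± 0.38, HRI1 by -2.30 ± 0.29 and PIC2, a mitochondrial copper and phosphate carrier, by -2.09 ± 0.35. YOR385W (-2.05), IST3 (-1.83), a splicing factor, and YRO2 (-1.82) completed the list, and the adjusted p-values in edgeR's test over these 9 genes were 0.000112 for HRI1 to 0.0146 for FES1. The rule that chose the 14 rises and 14 falls asked for values that do not overlap, so that separation is not a result.

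**Figure D2:**
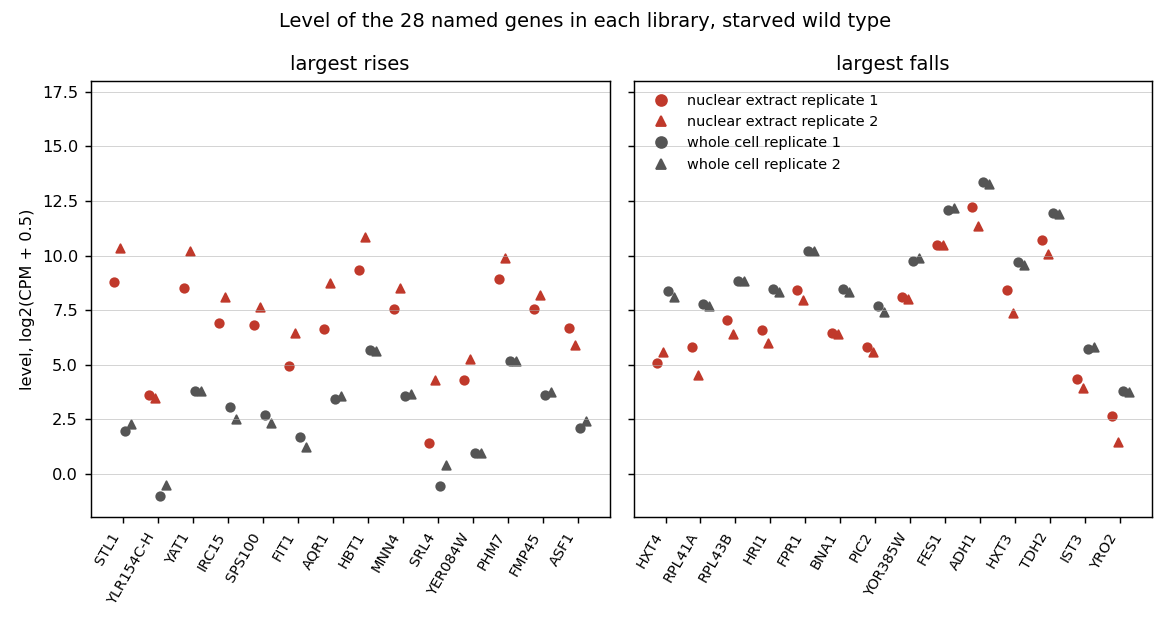
Level of the 14 largest rises (left) and 14 largest falls (right) in each library of starved wild type, as log2 of CPM + 0.5; circles are replicate 1 and triangles replicate 2, with nuclear extracts in red left of whole cells in grey. In STL1 the nuclear values are 447 and 1288 CPM, against 3.45 and 4.36 CPM in whole cells; the whole cell pairs lie closer together than most nuclear pairs.

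Genes for the use of carbon sources other than glucose were the named group with the largest share of rises. Of 21 genes for making glucose from acetate and other small carbon compounds, by way of the glyoxylate cycle and gluconeogenesis, 13 (61.9%) rose, none fell and the median log2 difference was 1.28, beside 16.1% and 0.00 over all genes tested. ACS1, an acetyl-CoA synthetase, had 629 and 1228 CPM in nuclear extract replicates 1 and 2, against 120.4 and 121 CPM in whole cells (log2 difference 2.63 ± 0.64 SE, adjusted p = 0.00666). ICL1, the isocitrate lyase of the glyoxylate cycle, had 524 and 613 CPM in nuclear extracts, against 139 and 150.1 CPM in whole cells (log2 difference 1.67 ± 0.41 SE, adjusted p = 0.00685). The malate synthase MLS1 had 198 and 239 CPM in nuclear extracts, against 60.6 and 76.8 CPM in whole cells (log2 difference 1.43 ± 0.31 SE, adjusted p = 0.00342). ACS1 and ICL1 did not pass without nuclear replicate 2 or either whole cell library (1.99 to 2.94 and 1.44 to 1.95 over all alternatives), nor MLS1 without whole cell replicate 1 (1.21 to 1.66). Chosen after their values were seen, the transcription factor genes CAT8 and SIP4, which activate this pathway, rose by 1.91 ± 0.47 and 1.54 ± 0.41 (adjusted p = 0.00688 and 0.00988). The acetate transporter ADY2 and the gluconeogenic PCK1 rose as well (1.65 ± 0.56 and 1.42 ± 0.44), but did not pass without nuclear replicate 2 or either whole cell library. FBP1, the other enzyme specific to gluconeogenesis, had 40.4 and 43.3 CPM in nuclear extracts, against 25.8 and 30.1 CPM in whole cells. It did not pass edgeR's test (log2 difference 0.36 ± 0.27 SE, adjusted p = 0.333). The summed share of the 21 genes was 1.47%, 2.05% and 2.04% of counts in nuclear replicates 1 to 3, against 0.870% and 0.878% in whole cells. Nuclear replicate 3 rests on 22 counts there, with an exact 95% interval of 1.28% to 3.07% that covers counting error only. The 13 calls became 2, 1 and 2 when 1 of the 3 libraries was left out, where the median was 0.93, 1.26 and 1.26.

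Hexose transporter and sensor genes moved in both directions. Of 12 genes, 3 rose and 3 fell, while 5 rose and 2 fell with library size alone. STL1, described above, belongs to this protein family. HXT5, a transporter made in the absence of glucose, had 542 and 936 CPM in nuclear extract replicates 1 and 2, against 53.0 and 47.1 CPM in whole cells (log2 difference 3.57 ± 0.51 SE, adjusted p = 0.0002). The glucose sensor gene RGT2 had 86.4 and 104 CPM in nuclear extracts, against 25.6 and 21.8 CPM in whole cells (log2 difference 1.78 ± 0.24 SE, adjusted p = 0.000177). HXT4 and HXT3 fell, as given above, and the third fall was SUC2, the secreted invertase, which is no transporter (log2 difference -0.83 ± 0.28 SE, adjusted p = 0.0324). SUC2 did not pass when any of nuclear replicates 1 and 2 and the whole cell libraries was left out (-0.92 to -0.58 over all alternatives). The median was -0.12, and 0.18 with library size alone. HXT6 and HXT7, chosen after their values were seen, are near-identical copies between which reads cannot be split with certainty. HXT6 had 1149 and 972 CPM in nuclear extracts, against 1365 and 1389 CPM in whole cells. HXT7 had 981 and 798 CPM in nuclear extracts, against 1141 and 1121 CPM in whole cells. Neither passed edgeR's test (adjusted p = 0.347 for HXT6 and 0.366 for HXT7). Differences over the whole list spanned -3.16 to 7.56 on the log2 scale.

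Glycolysis and fermentation genes fell in 9 of 22 cases (40.9%, beside 12.2% of all genes), with a median of -1.12 (-0.95 without nuclear replicate 3, where 10 fell). HXK2, hexokinase, had 752 and 532 CPM in nuclear extract replicates 1 and 2, against 1952 and 1765 CPM in whole cells (log2 difference -1.80 ± 0.35 SE, adjusted p = 0.00171). Of 3 abundant messengers chosen after their values were seen, PGK1 and ENO1 fell by 1.70 and 1.51 on the log2 scale (adjusted p = 0.0182 and 0.0188 in edgeR's test). Neither of them passed without nuclear replicate 2 or without either whole cell library. TDH3 had 10048 and 5694 CPM in nuclear extracts, against 12627 and 12095 CPM in whole cells, and did not pass (log2 difference -1.22 ± 0.58 SE, adjusted p = 0.126, and -0.91 without nuclear replicate 3). PDC6, a minor pyruvate decarboxylase of low level, was the only member to rise, with 16.2 and 9.13 CPM in nuclear extracts, against 1.81 and 1.04 CPM in whole cells (log2 difference 2.92 ± 0.54 SE, adjusted p = 0.00128). The 22 genes took 5.64%, 3.87% and 5.0% of counts in nuclear replicates 1 to 3, against 8.13% and 7.61% in whole cells. The 9 falls became 2, 2 and 2 when 1 of the 3 libraries was left out.

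Of 17 genes of peroxisomal fatty acid oxidation, 5 rose (29.4%, beside 16.1% of all genes) and none fell. The fatty acid transporter genes PXA1 and PXA2 were among them (1.64 ± 0.38 and 1.17 ± 0.28), with the thiolase gene POT1 (1.32 ± 0.47) and SPS19 (0.95 ± 0.32). No member passed without nuclear replicate 2 or without either whole cell library, and the same held for the trehalose and glycogen genes and the TCA cycle below. Trehalose and glycogen genes had 3 rises and 1 fall among 18 (16.7% and 5.56%), a share of rises near the 16.1% of all genes. The glycogen debranching enzyme GDB1 had 802 and 1585 CPM in nuclear extracts, against 247 and 259 CPM in whole cells (log2 difference 1.89 ± 0.57 SE, adjusted p = 0.0208). Phosphoglucomutase PGM2 had 289 and 372 CPM in nuclear extracts, against 665 and 555 CPM in whole cells (log2 difference -1.16 ± 0.39 SE, adjusted p = 0.0357). In the TCA cycle 1 of 17 genes rose, SDH1 (log2 difference 1.42 ± 0.43 SE, adjusted p = 0.0199), and the median was 0.05. Nuclear-encoded genes of the respiratory chain and ATP synthase included 10 falls (28.6%, beside 12.2% of all genes) and 1 rise among 35, while 3 rose and 8 fell with library size alone. ATP17, a subunit of ATP synthase, fell to 82.9 and 94.6 CPM in nuclear extracts, against 242 and 268 CPM in whole cells (log2 difference -1.75 ± 0.30 SE, adjusted p = 0.000688), whereas the external NADH dehydrogenase NDE2 rose (log2 difference 2.03 ± 0.30 SE, adjusted p = 0.00027). The 10 falls became 6, 5 and 5 when 1 of the 3 libraries was left out, and 6 without nuclear replicate 1.

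Chaperone genes of the heat shock factor type fell in 8 of 24 cases (33.3%) and rose in none, and their median was -1.01 (-0.85 without nuclear replicate 3, with the same counts). SSA4, the inducible Hsp70 and chosen after its values were seen, had 8821 and 9500.1 CPM in nuclear extract replicates 1 and 2, against 21179 and 22377 CPM in whole cells, and 12 counts in nuclear replicate 3 (log2 difference -1.80 ± 0.61 SE, adjusted p = 0.0358). Without that replicate the difference was -1.49 (adjusted p = 0.0353). HSC82, an Hsp90, had 2586 and 1359.7 CPM in nuclear extracts, against 4984 and 4612 CPM in whole cells (log2 difference -1.70 ± 0.46 SE, adjusted p = 0.0113). CPR6, an Hsp90 cofactor, had 426 and 365 CPM in nuclear extracts, against 1093 and 1113 CPM in whole cells (log2 difference -1.70 ± 0.34 SE, adjusted p = 0.0021). The Hsp40 gene YDJ1 had 343 and 218 CPM in nuclear extracts, against 652 and 643 CPM in whole cells (log2 difference -1.48 ± 0.37 SE, adjusted p = 0.00744). HSC82 and YDJ1 did not pass without nuclear replicate 2 or either whole cell library (-2.21 to -1.25 and -1.82 to -1.22 over all alternatives). The same held for SSA4. HSP42, a small heat shock protein also chosen after its values were seen, had 6619 and 6936 CPM in nuclear extracts, against 7131 and 7539 CPM in whole cells, and did not pass (log2 difference -0.68 ± 0.63 SE, adjusted p = 0.435, and -0.36 without nuclear replicate 3). Together the 24 genes took 5.72%, 5.43% and 5.93% of counts in nuclear replicates 1 to 3, the last on 64 counts with an exact 95% interval of 4.598% to 7.51%, against 9.54% and 9.83% in whole cells. All 3 nuclear libraries were below both whole cell libraries. The 8 falls became 1, 1 and 1 when 1 of the 3 libraries was left out, and 5 without nuclear replicate 1.

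Stress genes of the Msn2/4 type, a general stress regulon, split into 9 rises and 4 falls among 40 (22.5% and 10%, beside 16.1% and 12.2% of all genes), with a median of 0.42. Of these, 14 rose and 4 fell with library size alone, where the median was 0.76. PHM7 led the rises, and PAI3, an inhibitor of proteinase A, had 47.2 and 40.4 CPM in nuclear extracts, against 10.3 and 11.6 CPM in whole cells (log2 difference 1.77 ± 0.23 SE, adjusted p = 0.000131). GRE3, an aldose reductase, had 80.5 and 57.0 CPM in nuclear extracts, against 167 and 156 CPM in whole cells (log2 difference -1.46 ± 0.26 SE, adjusted p = 0.00099), and YRO2 fell further (-1.82). HSP12, an abundant stress protein gene chosen after its values were seen, had 3632 and 3503 CPM in nuclear extracts, against 1828 and 1898 CPM in whole cells, and did not pass (log2 difference 0.43 ± 0.73 SE, adjusted p = 0.696, and 0.69 without nuclear replicate 3). The rises became 5, 5 and 5 and the falls 3, 3 and 3 when 1 of the 3 libraries was left out.

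Genes of the protein synthesis and degradation machinery fell where they passed. Among 138 genes of cytosolic ribosomal proteins 39 fell (28.3%) and none rose, with a median of -0.62. Abundant short genes in general were lower: in the highest tertile of level in mutant whole cells the median was -0.62 in the shortest length quintile and -0.49 in the next. Median lengths were 806 bases for ribosomal protein, 867 for proteasome and 447 for respiratory chain genes. The part of level and length in the falls of these lists was not tested. RPS21B had 389.5 and 299 CPM in nuclear extracts, against 1025 and 974 CPM in whole cells (log2 difference -1.82 ± 0.41 SE, adjusted p = 0.00422), and both nuclear values were below both whole cell values. RPL38 had 148 and 112 CPM in nuclear extracts, against 298 and 292 CPM in whole cells (log2 difference -1.42 ± 0.29 SE, adjusted p = 0.0022). Many of these genes have a near-identical copy, so the split of reads within a pair is uncertain. With library size alone 17 of the 138 fell. The ribosomal protein genes took 5.44%, 3.92% and 5.56% of counts in nuclear replicates 1 to 3, against 6.44% and 6.19% in whole cells. The interval of nuclear replicate 3, 4.27% to 7.10%, reached across the whole cell values. Proteasome genes fell in 13 of 33 cases (39.4%) and rose in none, with a median of -0.73. RPN9, of the regulatory particle, had 125 and 102 CPM in nuclear extracts, against 239.6 and 261 CPM in whole cells (log2 difference -1.38 ± 0.27 SE, adjusted p = 0.00171). PRE3, of the core particle, had 164 and 148 CPM in nuclear extracts, against 315 and 304 CPM in whole cells (log2 difference -1.23 ± 0.29 SE, adjusted p = 0.00579), and did not pass without nuclear replicate 2 or whole cell replicate 1 (-1.28 to -0.99 over all alternatives). With library size alone 6 proteasome genes fell. The 39 ribosomal protein falls became 5, 6 and 8 and the 13 proteasome falls 2, 2 and 3 when 1 of the 3 libraries was left out.

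Amino acid biosynthesis genes fell in 15 of 40 cases (37.5%, beside 12.2% of all genes) and rose in 2, with a median of -0.57, while 4 rose and 10 fell with library size alone. SER3, of serine synthesis, had 89.7 and 61.4 CPM in nuclear extracts, against 242 and 197 CPM in whole cells (log2 difference -1.77 ± 0.25 SE, adjusted p = 0.000189). ARO4, of the aromatic pathway, had 211 and 137 CPM in nuclear extracts, against 455 and 443 CPM in whole cells (log2 difference -1.62 ± 0.36 SE, adjusted p = 0.00368), and did not pass without nuclear replicate 2 (-1.92 to -1.37 over all alternatives). HOM3, the aspartate kinase, had 88.7 and 81.4 CPM in nuclear extracts, against 182 and 189 CPM in whole cells (log2 difference -1.36 ± 0.24 SE, adjusted p = 0.000842). Without 1 of the 3 libraries there were 0, 0 and 0 rises and 5, 6 and 6 falls. Ribosome biogenesis genes had 5 rises and 4 falls among 57 (8.77% and 7.02%, both below the shares over all genes). With library size alone 9 rose and 2 fell. Against the whole cell mean, the median of these genes was 0.11 in nuclear replicate 1 and -0.41 in nuclear replicate 2. RRP14, a nucleolar protein, had 358 and 284 CPM in nuclear extract replicates 1 and 2, against 22.5 and 21.4 CPM in whole cells (log2 difference 3.60 ± 0.49 SE, adjusted p = 0.000177). KRR1, of the small subunit processome, had 79.9 and 53.4 CPM in nuclear extracts, against 165 and 158 CPM in whole cells (log2 difference -1.51 ± 0.34 SE, adjusted p = 0.00436), and did not pass without nuclear replicate 2 (-1.78 to -1.28 over all alternatives). The median of this list was -0.12, and 0.12 with library size alone, and without 1 of the 3 libraries there were 3, 3 and 3 rises and 0, 1 and 2 falls. Endoplasmic reticulum genes fell in 9 of 43 cases (20.9%, beside 12.2% of all genes) and rose in 2, with a median of -0.35. That balance rests on the scaling, since 5 rose and 4 fell with library size alone, where the median was -0.10. SEC63 and LHS1, which bring proteins into the endoplasmic reticulum, differed by -1.54 ± 0.32 and -1.31 ± 0.27, and without 1 of the 3 libraries there were 0, 0 and 0 rises and 3, 4 and 4 falls. Genes of cell wall and secreted proteins fell in 4 of 39 cases, among them PIR1 (-1.31 ± 0.30) and YGP1 (-1.12 ± 0.37), and none rose. With library size alone 3 rose and 2 fell. The nuclear replicates lay on opposite sides of the whole cell mean, with medians of 0.12 in replicate 1 and -0.43 in replicate 2. YGP1 did not pass without nuclear replicate 2 or either whole cell library (-1.43 to -0.85 over all alternatives), nor PIR1 without nuclear replicate 2 (-1.65 to -1.07). Their median was -0.26, and 0.09 with library size alone, and the falls became 9 without nuclear replicate 1 and 0, 1 and 2 without 1 of the 3 libraries. Core histone genes fell in 2 of 10 cases, HTA1 (log2 difference -1.46 ± 0.53 SE, adjusted p = 0.0496) and HTA2 (log2 difference -1.17 ± 0.28 SE, adjusted p = 0.00652), but HTA1 did not pass without nuclear replicate 3 (adjusted p = 0.0691). The 2 falls became 0, 0 and 1 when 1 of the 3 libraries was left out, and 1 without nuclear replicate 1. HTA2 did not pass without nuclear replicate 2 or whole cell replicate 1, and over all alternatives the difference was -1.58 to -1.21 for HTA1 and -1.24 to -0.93 for HTA2. Autophagy genes had 5 rises and 3 falls among 26 (19.2% and 11.5%, beside 16.1% and 12.2% of all genes), while 7 rose and none fell with library size alone, with the lipase gene ATG15 at 2.27 ± 0.42 and ATG12 at -0.71 ± 0.19. ATG12 did not pass without any 1 of the 3 libraries (-0.83 to -0.49 over all alternatives). Their median was -0.22, and 0.01 with library size alone, and without 1 of the 3 libraries there were 1, 1 and 2 rises and 0, 0 and 0 falls.

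Few genes whose products bind the poly(A) tail or export mRNA passed the test. Among 32 such genes 1 rose and 2 fell (3.12% and 6.25%, below the 16.1% and 12.2% of all genes), while 2 rose and 2 fell with library size alone, and the median was 0.03. MFT1, of the THO complex that couples transcription to export, had 74.9 and 59.5 CPM in nuclear extracts, against 19.0 and 30.3 CPM in whole cells (log2 difference 1.22 ± 0.44 SE, adjusted p = 0.0445), but it did not pass without nuclear replicate 3 (adjusted p = 0.0719). DBP5, the helicase that releases RNA at the pore, had 74.98 and 62.8 CPM in nuclear extracts, against 140.2 and 141 CPM in whole cells (log2 difference -1.26 ± 0.22 SE, adjusted p = 0.000726). HRP1, of the cleavage factor, had 161 and 148 CPM in nuclear extracts, against 273 and 275 CPM in whole cells (log2 difference -1.07 ± 0.27 SE, adjusted p = 0.00789), and did not pass without any 1 of the 3 libraries (-1.11 to -0.83 over all alternatives). Of 23 genes of the nuclear exosome and surveillance, 6 rose (26.1%) and 3 fell (13.0%), while 8 rose and 1 fell with library size alone. NAB3 and NRD1 encode the RNA-binding pair that ends short transcripts. NAB3 had 430.0 and 362 CPM in nuclear extracts, against 86.5 and 124 CPM in whole cells (log2 difference 1.63 ± 0.35 SE, adjusted p = 0.00305). NRD1 had 205 and 285 CPM in nuclear extracts, against 74.2 and 67.3 CPM in whole cells (log2 difference 1.55 ± 0.34 SE, adjusted p = 0.00392). NAB3 did not pass without whole cell replicate 1 (1.38 to 1.90 over all alternatives), nor NRD1 without nuclear replicate 2 or whole cell replicate 2 (1.22 to 1.78). TRF5, a poly(A) polymerase of surveillance, rose by 1.28 ± 0.25, and RAI1 differed by -1.33 ± 0.28. The 6 rises became 4, 2 and 3 and the 3 falls 1, 1 and 1 when 1 of the 3 libraries was left out. Nuclear pore genes had 2 rises, NUP1 (1.78 ± 0.36) and POM33 (0.78 ± 0.26), and 2 falls, SEC13 (-1.02 ± 0.26) and NUP85 (-0.76 ± 0.27), among 33 (6.06% and 6.06%, below the shares over all genes). In this list 7 rose and 1 fell with library size alone, where the median was 0.26 instead of 0.04. P-body and stress granule genes had 2 rises, EDC1 (1.38 ± 0.41) and PAT1 (0.75 ± 0.22), and 1 fall, LSM1 (-0.75 ± 0.21), among 20. Of these, 6 rose and none fell with library size alone, where the median was 0.18 instead of -0.06. POM33, SEC13, NUP85, EDC1, PAT1 and LSM1 did not pass without any 1 of the 3 libraries. Without 1 of the 3 libraries the export list had 0, 0 and 0 rises and 1, 1 and 1 falls, the pore list 1, 1 and 1 rises and 0, 0 and 0 falls, and the P-body list no call.

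Reads were counted over whole gene features with introns included, so unspliced and spliced RNA were not separated. Leaving ribosomal protein genes aside, 185 features contain an intron and 179 of them were tested; 31 rose (17.3%) and 24 fell (13.4%), with a median of -0.01, all close to the figures over all genes. YOS1, a protein of vesicle traffic, rose with 40.1 and 46.1 CPM in nuclear extracts, against 7.62 and 8.31 CPM in whole cells (log2 difference 2.21 ± 0.25 SE, adjusted p = 4.57e-05). MMS2, of DNA damage tolerance, fell (log2 difference -1.13 ± 0.19 SE, adjusted p = 0.000757). With library size alone 44 intron-containing genes rose and 11 fell, with a median of 0.22, and without 1 of the 3 libraries there were 15, 13 and 13 rises and 8, 9 and 10 falls. None of the 11 tested features (of 12) that hold a small nucleolar or small nuclear RNA gene passed, and their median was -0.10, or 0.17 with library size alone, where 2 rose. Of the 683 features that the annotation used here does not list, 229 were tested, of which 63 rose (27.5%) and 6 fell (2.62%), with a median of 0.66. A feature of low level passed the filter through whichever fraction held its counts, so the 229 cannot stand for the 683. One near 0 in whole cells could pass only through nuclear libraries. The share of rises and the median are thus built in part by the filter. Without 1 of the 3 libraries there were 27, 27 and 31 rises and 2, 4 and 2 falls. YKL202W had 445 counts over nuclear replicates 1 and 2 and 0 in both whole cell libraries. Against a floor of 3 counts over the whole cell group it was at least 51.9-fold higher. It runs on the strand opposite to MNN4 and overlaps it (chromosome XI, 63821 to 64402, against 63930 to 67466), and MNN4 was itself among the largest rises.

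Counts of transcripts of the mitochondrial genome were lower in nuclear extracts. Both kinds of RNA were selected on oligo(dT) beads, and how these transcripts were captured there was not tested. Of 28 features, 7 passed the filter and 5 of these fell, with a median of -1.91. OLI1, subunit 9 of ATP synthase, had 216 and 89.1 CPM in nuclear extract replicates 1 and 2, against 836 and 677 CPM in whole cells (log2 difference -2.57 ± 0.60 SE, adjusted p = 0.00502), and did not pass without nuclear replicate 2 (-3.29 to -2.15 over all alternatives). COX1, of cytochrome oxidase, had 38.7 and 35.3 CPM in nuclear extracts, against 147 and 90.5 CPM in whole cells (log2 difference -1.91 ± 0.38 SE, adjusted p = 0.00196). The ribosomal protein gene VAR1 had 0.216 and 0.315 CPM in nuclear extracts, against 4.17 and 2.28 CPM in whole cells (log2 difference -3.90 ± 0.73 SE, adjusted p = 0.00138). All 28 features together took 0.0279% and 0.0148% of counts in nuclear replicates 1 and 2, against 0.104% and 0.0813% in whole cells. Nuclear replicate 3 had none, which allows a share of up to 0.278%. These transcripts are poor in G and C (median 23.7%), and with an offset for that content 4 of the 7 fell and the median was -1.07. The 5 falls became 3, 4 and 5 when 1 of the 3 libraries was left out.

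**Figure D3:**
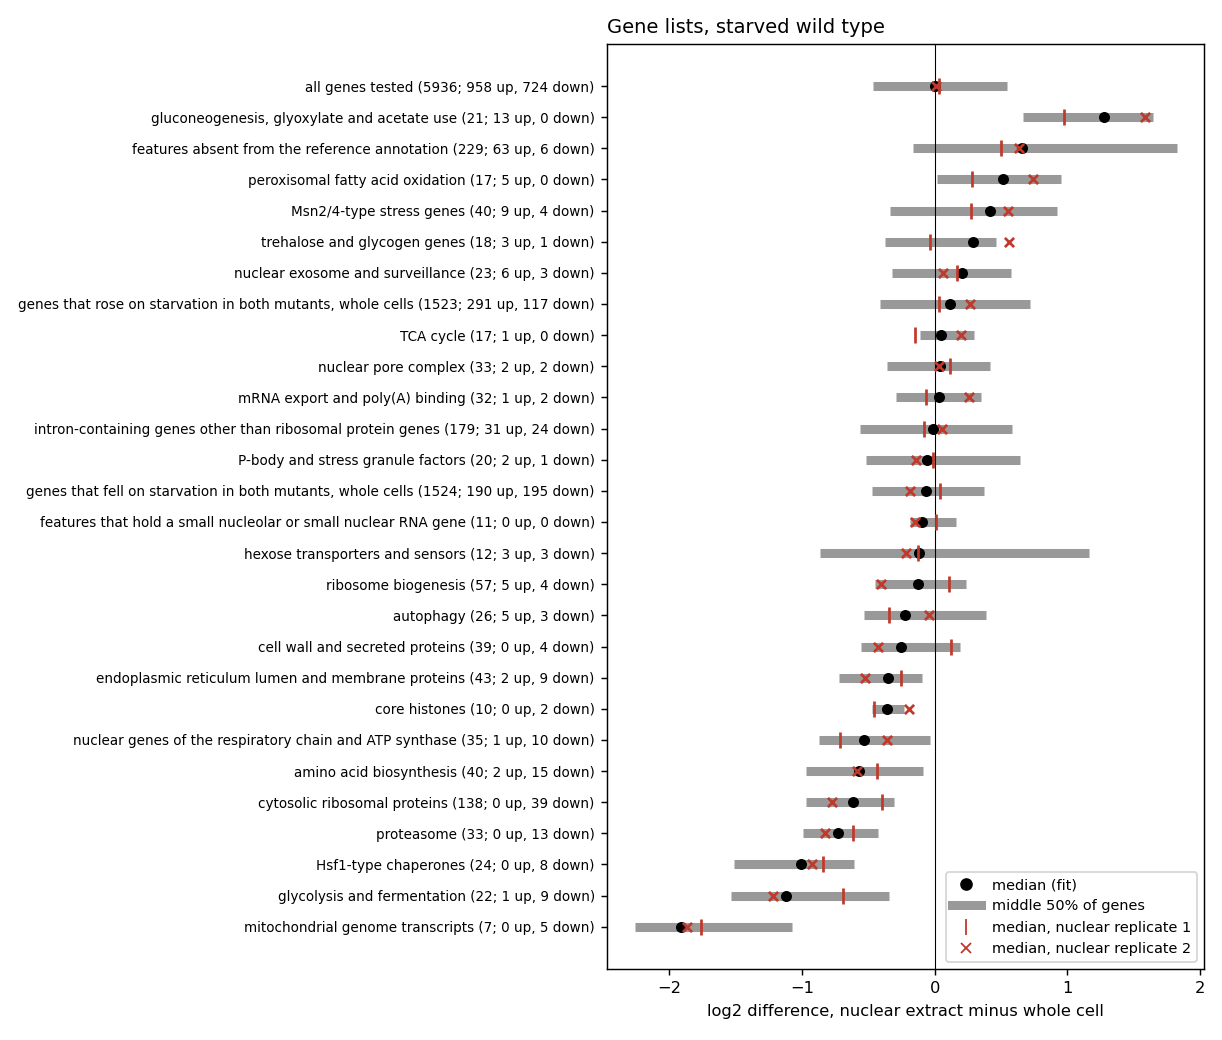
Log2 difference between nuclear extracts and whole cells of starved wild type for each gene list (horizontal axis); black points are medians of the fit, grey bars the interquartile range, and red marks the medians for nuclear replicates 1 and 2 against the whole cell mean, with the number tested, up and down in brackets. Gluconeogenesis, glyoxylate and acetate genes have the highest median (1.28) and mitochondrial genome transcripts the lowest (-1.91). The 2 nuclear replicates lie on the same side of 0 in both. In several other lists they lie on opposite sides, such as cell wall and secreted proteins (0.12 and -0.43), ribosome biogenesis (0.11 and -0.41) and the TCA cycle (-0.14 and 0.20).

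Genes that starvation changes were looked up in the whole cell libraries of the mutants, which are not among the 5 compared. Of 1523 tested genes that rose on starvation in both mutants, 291 (19.1%) were higher and 117 (7.68%) lower in wild type nuclear extracts, with a median of 0.12. Of 1524 tested genes that fell on starvation in both, 190 (12.5%) were higher and 195 (12.8%) lower. Their median was -0.06, or 0.17 with library size alone. Against the whole cell mean, nuclear replicates 1 and 2 had medians of 0.03 and 0.26 in the first class. In the second class these were 0.04 and -0.18. Without nuclear replicate 2 the class medians were -0.04 and 0.02, so the order of the classes rests on that library. The splits rest on the scaling: in the first class 463 rose and 71 fell with library size alone, and in the second 298 rose and 68 fell with library size alone. Without 1 of the 3 libraries the first class had 100, 103 and 102 rises and 30, 35 and 32 falls, and the second 106, 76 and 73 rises and 25, 47 and 42 falls. Examples of the first class with large nuclear rises were STL1 and SPS100. Members of the second class with large nuclear rises were ASF1, PXR1 and PHO4. PXR1, a nucleolar protein, had 208 and 136 CPM in nuclear extracts, against 8.53 and 11.8 CPM in whole cells (log2 difference 3.84 ± 0.39 SE, adjusted p = 1.85e-05). PHO4, the activator of phosphate genes, had 101 and 119 CPM in nuclear extracts, against 8.53 and 11.8 CPM in whole cells (log2 difference 3.20 ± 0.28 SE, adjusted p = 3.30e-06).

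The library of 1079 counts was then set beside the others. Genes called without it were summed in each library. The 906 genes higher in nuclear extracts took 11.6% and 17.05% of counts in nuclear replicates 1 and 2 and 118 of the 1079 counts of nuclear replicate 3, which is 10.9% with an exact 95% interval of 9.14% to 13.0%. They took 4.23% and 4.28% in whole cells. The 781 lower genes took 14.5% and 11.2% in nuclear replicates 1 and 2 and 159 counts, or 14.7% (12.7% to 16.99%), in nuclear replicate 3, against 25.3% and 25.0% in whole cells. In both sets nuclear replicate 3 lay beside nuclear replicate 1 and apart from the whole cell libraries by more than its counting error, although it held at most 3 counts of any single named rise.

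**Figure D4:**
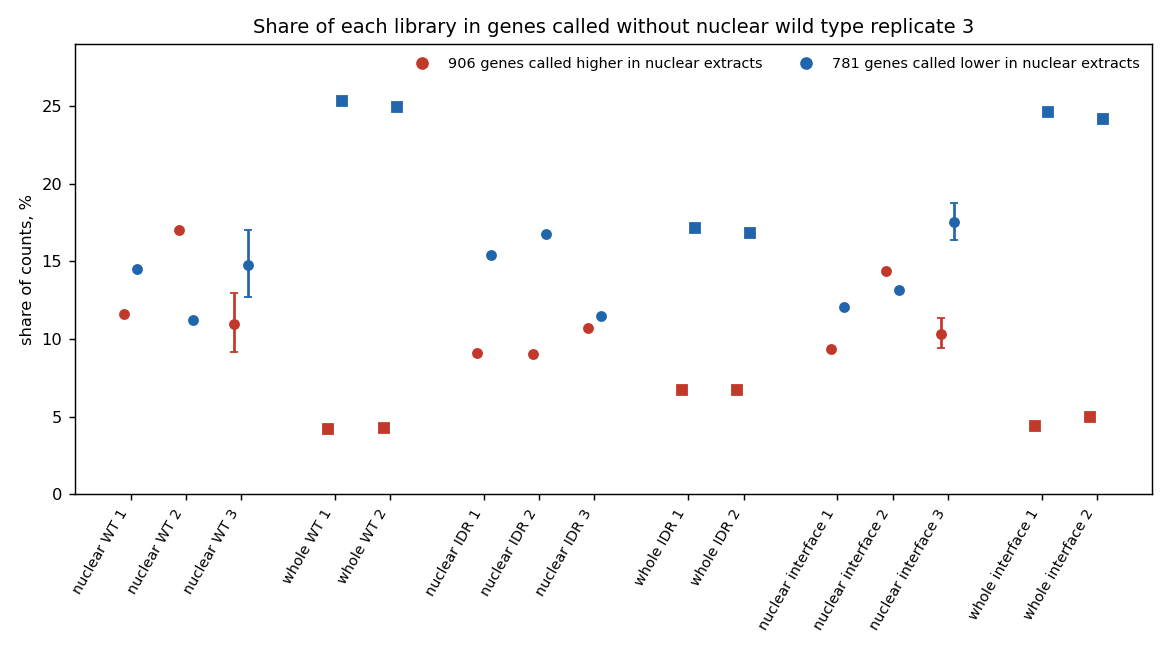
Share of each starved library's counts (vertical axis, %) in the 906 genes called higher (red) and the 781 called lower (blue) in wild type nuclear extracts when replicate 3 is left out; circles are nuclear extracts, squares whole cells and bars exact 95% intervals of counting error. Nuclear wild type replicate 3 has 10.9% and 14.7%, beside nuclear replicate 1 and apart from the wild type whole cells. The genes were chosen on the other 4 wild type libraries, and the nuclear libraries of the mutants span these shares.

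The difference between fractions varied with properties of the genes. By quintiles of the level in mutant whole cells, which are not among the compared libraries, the median log2 difference was 0.45, 0.13, -0.01, -0.08 and -0.40 as the level went up. The lowest quintile starts at 0 CPM, and a gene near 0 in whole cells could pass the filter on low counts only through nuclear libraries, so this median is built in part by the filter. Of 1442 features under 10 CPM in mutant whole cells 778 were tested, whereas all 5158 features at or above 10 CPM were. Over these 5158 the medians were 0.20, 0.07, -0.04, -0.12 and -0.42 by level, -0.37, -0.20, -0.04, 0.12 and 0.24 by length, and -0.16, -0.09, -0.09, -0.03 and 0.15 by G and C content, in a split made after the data were seen. Over all genes tested, by quintiles of feature length the median was -0.10, -0.18, -0.06, 0.11 and 0.25 as length went up. By quintiles of G and C content it was -0.11, -0.05, -0.03, -0.01 and 0.28, so that the quintile of genes with 42.9% to 59.1% G and C stood apart from the rest. There, 309 of 1187 genes were higher. Nuclear replicates 1 and 2 each showed these orders, with 0.30 and 0.28 in the quintile richest in G and C. In the middle and highest tertiles of the level the longest genes had the highest median and the genes richest in G and C likewise, with 0.36 and -0.13 in the richest quintile, against -0.18 and -0.40 in the poorest. With an offset for G and C content the richest quintile had a median of -0.02. The offset was fitted to the trend with that content in these same libraries, so a median near 0 there is built in. The trend with length remained (-0.18 for the shortest quintile and 0.27 for the longest), and 915 genes were higher and 809 lower (29% of genes in all). These medians are over genes, which are not replicates, and the part of library preparation in them was not tested.

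The first 60 bases of the open reading frames are given for the 3 named rises with the highest and the 3 named falls with the lowest G and C content, to show how far such sequences differ. G and C are in capitals, and sequences and positions are those of the S288C R64 assembly from RefSeq. Over their whole features, YAT1, FMP45 and YLR154C-H hold 58.0%, 49.5% and 48.5% G and C, and IST3, YOR385W and FES1 hold 34.5%, 36.5% and 38.1%.
YAT1, chrI:190193-190252, plus strand: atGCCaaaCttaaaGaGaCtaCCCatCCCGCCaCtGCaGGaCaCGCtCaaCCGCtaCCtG
FMP45, chrIV:61742-61801, minus strand: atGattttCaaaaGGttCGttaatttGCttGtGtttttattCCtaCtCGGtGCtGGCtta
YLR154C-H, chrXII:468899-468958, minus strand: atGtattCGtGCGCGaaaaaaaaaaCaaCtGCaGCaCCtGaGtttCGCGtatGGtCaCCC
IST3, chrIX:364889-364948, plus strand: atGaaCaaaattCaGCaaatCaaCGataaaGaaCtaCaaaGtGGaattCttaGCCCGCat
YOR385W, chrXV:1065043-1065102, plus strand: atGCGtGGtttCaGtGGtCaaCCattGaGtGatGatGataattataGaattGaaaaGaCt
FES1, chrII:444634-444693, minus strand: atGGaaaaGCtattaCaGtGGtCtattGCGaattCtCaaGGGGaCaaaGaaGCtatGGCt
In these windows YAT1 has 55.0% G and C, against 35.0% for both IST3 and YOR385W, whereas FMP45 also has 35.0% and is rich in G and C only further on. With the offset for this content the log2 difference was 4.41 for YAT1 instead of 5.57, 3.48 for FMP45 instead of 4.03, and -1.68 for IST3 instead of -1.83, and all 3 still passed.

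**Figure D5:**
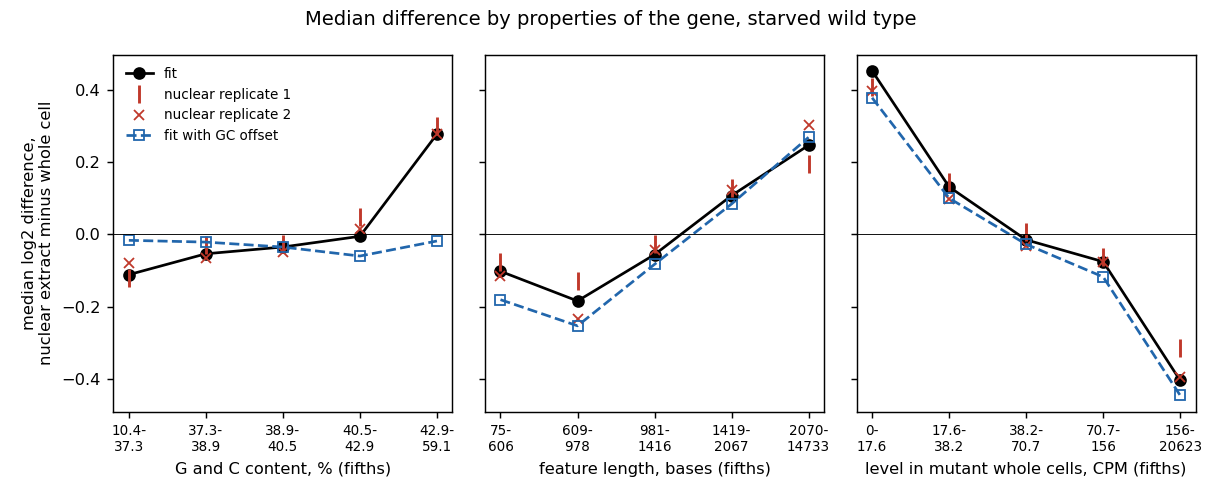
Median log2 difference between nuclear extracts and whole cells of starved wild type by quintiles of G and C content, feature length and level in the starved whole cells of the mutants; black points are the fit, red marks nuclear replicates 1 and 2 against the whole cell mean, and blue squares the fit with an offset for G and C content. The fit has 0.45 in the lowest and -0.40 in the highest level quintile, of which the lowest is built in part by the filter on low counts. The offset, fitted to the G and C trend of these libraries, takes the richest G and C quintile to -0.02 by construction, while the order by length remains.

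Genes near chromosome ends were of low level, with a median of 11.5 CPM in mutant whole cells against 53.1 CPM more than 80 kb from an end, so only genes with at least 10 CPM there are compared. Of 123 such genes within 20 kb of an end, 27 were higher and 13 lower, with a median of -0.02. Of 4243 more than 80 kb from an end, 560 were higher and 607 lower, with a median of -0.07. Over all genes tested, among which the filter acts on the low ones, the medians were 0.27 and -0.02.

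The same comparison was made in the starved IDR and interface mutants, in the same fit. A check of the nuclear labels used the 607 genes higher and 577 genes lower in starved whole cells of the IDR mutant than of the interface mutant, as a score relative to wild type of the same fraction. The score was 1.08 and 1.14 for IDR mutant whole cells and 0.04 and 0.15 for interface mutant whole cells. The nuclear libraries labelled IDR mutant scored -0.05, -0.14 and 0.54 and replicates 1 and 2 of those labelled interface mutant 0.49 and 0.13, so all 5 lay nearer the whole cell interface mutant. The whole cell scores follow from the choice of the genes, and the nuclear scale was not calibrated on libraries of known label. The score thus cannot tell a wrong label from a whole cell difference that nuclear RNA does not share. Without the 3 nuclear libraries labelled IDR mutant, which scored below their whole cell counterparts, the wild type comparison had 1079 genes higher and 819 lower of 5871.

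In the interface mutant, 1043 genes (17.6%) were higher and 902 (15.2%) lower in nuclear extracts. Of the 958 genes higher in wild type nuclear extracts, 692 were also called higher there, which is 72.2% of the wild type and 66.3% of the interface mutant genes. Of the 724 lower genes 576 were also called lower, which is 79.6% and 63.9%. No gene differed between wild type and the interface mutant at an adjusted p under 0.05 in edgeR's quasi-likelihood test (0 of 5936, with 161 at an unadjusted p under 0.05, and 0 with DESeq2). Nuclear replicate 3 held 1079 counts in wild type and 3981 in the interface mutant. The test thus rests mainly on nuclear replicates 1 and 2 of each strain, and an absence of calls does not show that the strains are alike. Without whole cell interface mutant replicate 1, 65 genes differed, all less positive in wild type. STL1 differed by 7.14 in the interface mutant beside 7.56 in wild type, and BNA1 by -2.65 beside -2.22. The 3 genes with the smallest p-values were YDR250C, YMR173W-A and HMS1, where the wild type differences were -0.71, -0.73 and -1.18, against 1.63, 0.29 and 0.50 in the interface mutant.

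In the libraries labelled IDR mutant, 311 genes (5.24%) were higher and 231 (3.89%) lower in nuclear extracts. Of the wild type's 958 higher genes 151 were shared, which is 15.8% of the wild type and 48.6% of the IDR mutant genes, and 4 were called lower there. Of the 724 lower genes 88 were shared, which is 12.2% and 38.1%. The test of the difference called 159 genes (2.68%), of which 120 (2.02%) were more positive in wild type and 39 (0.657%) less. SPS100 differed by 4.64 in wild type and by 0.92 in the libraries labelled IDR mutant, TOP3, a DNA topoisomerase, by 1.96 and -0.20, and PAI3 by 1.77 and -0.25. TSC3, a subunit of serine palmitoyltransferase, differed by -1.47 in wild type and by 0.24 in the libraries labelled IDR mutant, and HRI1 by -2.30 and -0.34. CIR1, of mitochondrial electron transfer, differed by -1.42 in wild type and by -0.0035 in the libraries labelled IDR mutant. This count rests on single libraries: it was 3 and 1 without whole cell wild type replicates 1 and 2, 358, 20 and 84 without nuclear wild type replicates 1, 2 and 3, 26 and 12 without whole cell IDR mutant replicates 1 and 2, and 40, 79 and 998 without nuclear replicates 1, 2 and 3 labelled IDR mutant. It cannot be given without all 3 nuclear libraries labelled IDR mutant, whose labels the score could not settle, since none of that group would remain. Gluconeogenesis, glyoxylate and acetate genes had a median of -0.63 in the libraries labelled IDR mutant and 0.33 in the interface mutant, beside 1.28 in wild type.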

How the data were processed

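Gene counts were made by the authors with featureCounts 2.0.1, per the file headers, over whole gene features with introns included, by strand and with an option for fractions of multi-mapped reads. All deposited counts were whole numbers. Trimming with cutadapt and alignment with TopHat2 are named per the submitters' processing notes, with versions not given in the sources used here. Spike-in rows (0.860% to 1.01% of counts in the wild type nuclear libraries) were dropped, which left 6600 yeast features. RefSeq R64 matched 5917 of them by locus name, 5888 at the same position.

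All 15 starved libraries were fitted with edgeR 4.0.16 in R 4.3.3 (TMM factors, filterByExpr with a minimum count of 10, quasi-likelihood test by group, Benjamini-Hochberg threshold 0.05), after tests on simulated data. Depths were 1079 to 23138938 counts in nuclear extracts and 4815254 to 5513154 in whole cells. Alternatives were other factors, filters, libraries and DESeq2 1.42.0; an offset for G and C content and fits without mutant nuclear libraries were added after the data were seen. Members and lists were chosen with earlier results of these data known. Named genes were NAB2, the 14 largest rises and falls of annotated protein-coding nuclear genes with a group mean of at least 10 CPM and no overlap, up to 4 members per list with the smallest adjusted p, and 5 each way (or the 3 smallest p) for strain differences. Exact binomial intervals and limits (95%; 3 counts for a count of 0) cover counting error only.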

Additional observations from a re-analysis of the deposited data

Results flagged for a closer look

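Counts assigned to spike-in sequences lay outside the main measurement. They numbered 200633, 56277 and 11 in nuclear extract wild type replicates 1 to 3, which is 0.860%, 0.878% and 1.01% of all counts, and they were not used for scaling. Only the nuclear libraries have such counts here.

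The difference between nuclear extracts and whole cells was another one in wild type than in the libraries labelled IDR mutant for 159 genes by the interaction test. Wild type minus IDR mutant, the log2 difference was 3.71 for SPS100, 2.16 for TOP3, 2.02 for PAI3, 2.20 for YOR302W, the upstream reading frame of CPA1, and 3.26 for RNP1, an RNA-binding protein. It was -1.56 for SER2, of serine synthesis, and -1.41 for its neighbour CIR1. It was -1.71 for TSC3, a subunit of serine palmitoyltransferase, -1.71 for RPB10, a subunit shared by the RNA polymerases, and -1.96 for HRI1. The nuclear libraries labelled IDR mutant scored nearer the whole cell interface mutant than the whole cell IDR mutant, as given above, and the part of that in these differences was not tested.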

How the results depend on the processing

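The wild type comparison, with 1682 calls, gave 2525 when only its 5 libraries were fitted and 557 to 1687 when 1 of its libraries was left out. All other alternatives run stayed within 1.5 times of 1682, from 1538 with all 21 libraries to 2509 without the nuclear libraries of both mutants. DESeq2, run without the libraries under 100000 counts, called 2115. The wild type and IDR mutant difference, with 159 calls, gave 81 with median-ratio factors, 83 without the libraries under 100000 counts, 635 with DESeq2, and 1 to 998 when 1 library was left out. It could not be fitted without the nuclear libraries labelled IDR mutant. The wild type and interface mutant difference had 0 calls in every alternative run other than leaving out 1 library, where it had 0 to 65. The labels do not say what a replicate number shares. Deviations of same-numbered libraries correlated at -0.01 between nuclear and whole cell wild type and at -0.11 between both fractions of the IDR mutant, but at 0.18 to 0.49 between strains within the nuclear libraries, and at 0.28 between whole cells of both mutants, so numbers did not pair the fractions and 159 rests on a fit that leaves out what same-numbered nuclear libraries share. With the replicate number as a block there were 2206, 1073 and 0 calls in the 3 comparisons. NAB2 turned its sign with library size alone (0.15, adjusted p = 0.81 in edgeR's test, beside -0.11). Of 120 named genes that passed, 72 passed in all alternatives, and so did 24 of the 28 largest rises and falls. When a lone library is left in a group, it is assumed to vary like the other groups. The library of 1079 counts resolves no single gene beyond the most abundant.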

Other observations

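Of 20 genes of nitrogen source use, a list chosen after the values were seen, 19 were tested, 8 rose in nuclear extracts and none fell, with a median log2 difference of 1.02. The proline permease gene PUT4, the ornithine transaminase gene CAR2 and the peptide transporter gene PTR2 differed by 3.54, 3.31 and 3.06. The 8 rises became 2, 3 and 2 without nuclear replicate 2, whole cell replicate 1 and whole cell replicate 2. Of 18 osmotic stress genes of the Hog1 pathway, likewise chosen, 6 rose and none fell (median 0.41), and 3 rose without any 1 of those 3 libraries. Among 17 genes of the cell wall integrity pathway 3 were higher and 4 lower (median 0.06), and without 1 of the 3 libraries none was higher and 1, 1 and 3 were lower. Over all genes tested 16.1% rose and 12.2% fell.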
